A study of Mus musculus with 20 samples.

Results

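The ciliogenesis transcription factors are 7 genes, Foxj1, Rfx1, Rfx2, Rfx3, Myb, Trp73 and Foxn4, taken by name. Every non-control probe that the arrays annotate to one of these names was included, which gave 14 probes of the 41174 probes on each array. The 14 probes name 7 of 27670 gene names. Probes are numbered within a gene by chromosomal start. Testing required a spot that the scanner software classed as well above background on 10 or more arrays, which 26063 probes met, among them 11 member probes of 6 genes. Foxn4 was well above background on 0 of 20 arrays, and Rfx3 probe 1 and Rfx3 probe 3 on 2 and 3 arrays, so these were not tested. The name Foxn4 therefore stands for a probe without measured signal here.

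Whole trachea RNA was hybridized to 20 one-colour arrays, 1 trachea sample per array, in 4 groups of 5 biological replicates. WT-control was uninjured wild-type trachea, KO-control was uninjured Myd88 knockout (Myd88KO) trachea, and WT-injury and KO-injury were taken 3 days after 2% polidocanol was instilled in the airway. Polidocanol is a detergent that strips the surface epithelium, so the comparisons ask how epithelial repair stood at day 3 and whether loss of Myd88, the adaptor of Toll-like and interleukin-1 receptors, changed it. The labels give strain C57/Bl6 and an age of 4 months for all mice, and name no vehicle given to the uninjured ones. Myd88KO mice were backcrossed and bred from knockout pairs, and the wild-type mice came from a separate in-house colony, so genotype and colony cannot be told apart.

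Motile cilia are built by multiciliated cells, which amplify their centrioles and then switch on the genes of the moving axoneme. Foxj1, a forkhead factor, and the RFX factors, which bind the X-box of cilium genes, act on those effector genes. Myb acts early, as a cell leaves the cycle and amplifies centrioles, and Trp73 (p73) lies upstream of Foxj1 and Myb in airway epithelium. Foxn4 drives multiciliated cell genes in frog skin. In whole trachea, fewer ciliated cells and less RNA per cell cannot be told apart.

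The sequences shown here are the gene starts at which the motifs of these factors themselves occur, because the members can act on each other's promoters. They come from RefSeq promoter windows of build GRCm38.p6 around each annotated transcript start, and 6 members matched 7 windows. Foxj1 had no window in that set, so its promoter was not searched. Motif letters searched on both strands are in capitals, and position 1 is the first transcribed base. The letters were GTTGCC for 1 arm of the X-box of RFX factors, TGTTTAC for forkhead factors, CAACTG for MYB, and TTTCCCGC or TTTGGCGC for E2F. The X-box letters, 1 arm only, stood in Rfx1, Rfx2, Rfx3 and 1 window of Trp73. A MYB match stood in Rfx1, where it overlaps the X-box letters, and in the other window of Trp73, and the forkhead letters stood in Myb.
Rfx2, chr17:56831059-56831158, minus strand: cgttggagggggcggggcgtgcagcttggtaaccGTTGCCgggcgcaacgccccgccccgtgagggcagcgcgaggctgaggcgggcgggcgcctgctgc
Trp73 distal start, chr4:154139846-154139945, minus strand: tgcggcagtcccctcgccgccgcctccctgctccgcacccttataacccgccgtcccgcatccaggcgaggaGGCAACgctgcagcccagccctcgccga
Trp73 internal start, chr4:154097144-154097243, minus strand: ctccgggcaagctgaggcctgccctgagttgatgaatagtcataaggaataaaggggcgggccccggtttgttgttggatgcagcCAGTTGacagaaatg
Rfx1, chr8:84066766-84066865, plus strand: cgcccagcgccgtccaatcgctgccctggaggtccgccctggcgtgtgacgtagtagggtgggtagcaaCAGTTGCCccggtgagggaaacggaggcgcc
Rfx3, chr19:28011122-28011151, minus strand: gtgagttatagcaaccGTTGCCttgtgaat
Myb, chr10:21160935-21160964, minus strand: gtttgatggcatcTGTTTACagagttacac

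The X-box letters begin at position -116 in Rfx2 and at positions 3, 2 and 32 in Trp73, Rfx1 and Rfx3. Of all 32851 promoter windows, 12.5% hold the X-box letters, 3.65% the forkhead letters, 13.7% the MYB letters and 1.56% either E2F motif. Among the members the X-box letters stood in 4 of 7 windows, the MYB letters in 2, the forkhead letters in 1 and E2F letters in 0. A match describes letters in these windows only, and no binding was measured.

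Some arrays stood apart from their group, and this bears on every injury result below. KO-injury replicate 5 carried secretory cell genes at an uninjured level, with a mean log2 signal of 7.74 over the 5 genes that have a value on every array, where the 10 uninjured arrays spanned 7.19 to 8.06 and the other injured arrays 5.13 to 6.73. Another 2 secretory genes, Scgb1a1 among them, have no value on that array. Its proliferation genes stood at -1.85, the level of uninjured arrays. Myb probe 1, however, read 2.48 there, above every uninjured array, while Myb probe 3, at -1.75, lay in the uninjured range. KO-injury replicate 1 was the highest of those other injured arrays for secretory genes, at 6.73. WT-control replicate 3 carried squamous epithelium genes at 5.16, against 0.11 to 1.32 on the other uninjured arrays. It was also highest of the uninjured arrays for proliferation genes, at 0.11 against -1.85 to -1.13, and for basal genes, at 4.11 against 2.98 to 3.52. The Myd88 probe, whose place relative to the deleted part is not given in the sources used here, was 0.21 lower in KO-control than in WT-control (SE 0.14, limma adjusted p = 1.00) and 0.77 lower in KO-injury than in WT-injury (SE 0.14, limma adjusted p = 0.00824), so it does not by itself check the uninjured labels. All arrays had 57.5% to 67.8% of spots well above background, and the arrays were scanned on 2 days, replicates 2, 3 and 4 of every group on day 1 and replicates 1 and 5 on day 2.

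None of the members was called changed by injury or by genotype. Values are log2 signals minus the log2 of the array's 75th percentile, so that percentile is 0 and a difference of 1 is a 2-fold change. A call is a limma adjusted p under 0.01, with Benjamini-Hochberg adjustment over all tested probes. For injury in wild-type trachea 0 of 11 member probes were called, beside 5.26% of all tested probes. For injury in Myd88KO trachea it was 0 of 11 beside 0.376%. For Myd88KO against wild-type it was 0 of 11 beside 0.384% in uninjured and 0 of 11 beside 0.38% in injured tracheas. For the difference between the 2 genotypes' injury responses it was 0 of 11 beside 0% of all probes, where 2703 probes had an unadjusted p under 0.05. Under an unadjusted p of 0.05 stood 1 member probe for wild-type injury, beside 26.4% of all tested probes, and 4 for Myd88KO injury, beside 19.5%, all 4 of them probes of Myb. None did so for genotype in uninjured or injured tracheas or for the difference between responses, beside 5.59%, 12.5% and 10.4% of all tested probes. Counts of called member probes stayed at 0 in every alternative fit over all 4 groups or over the groups compared, array weights and the methods' one-way test included, and in each fit without 1 array. Foxj1, Myb probes 1 and 2 and Trp73 probe 1 spread widely among injured tracheas of both genotypes.

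**Figure D1:**
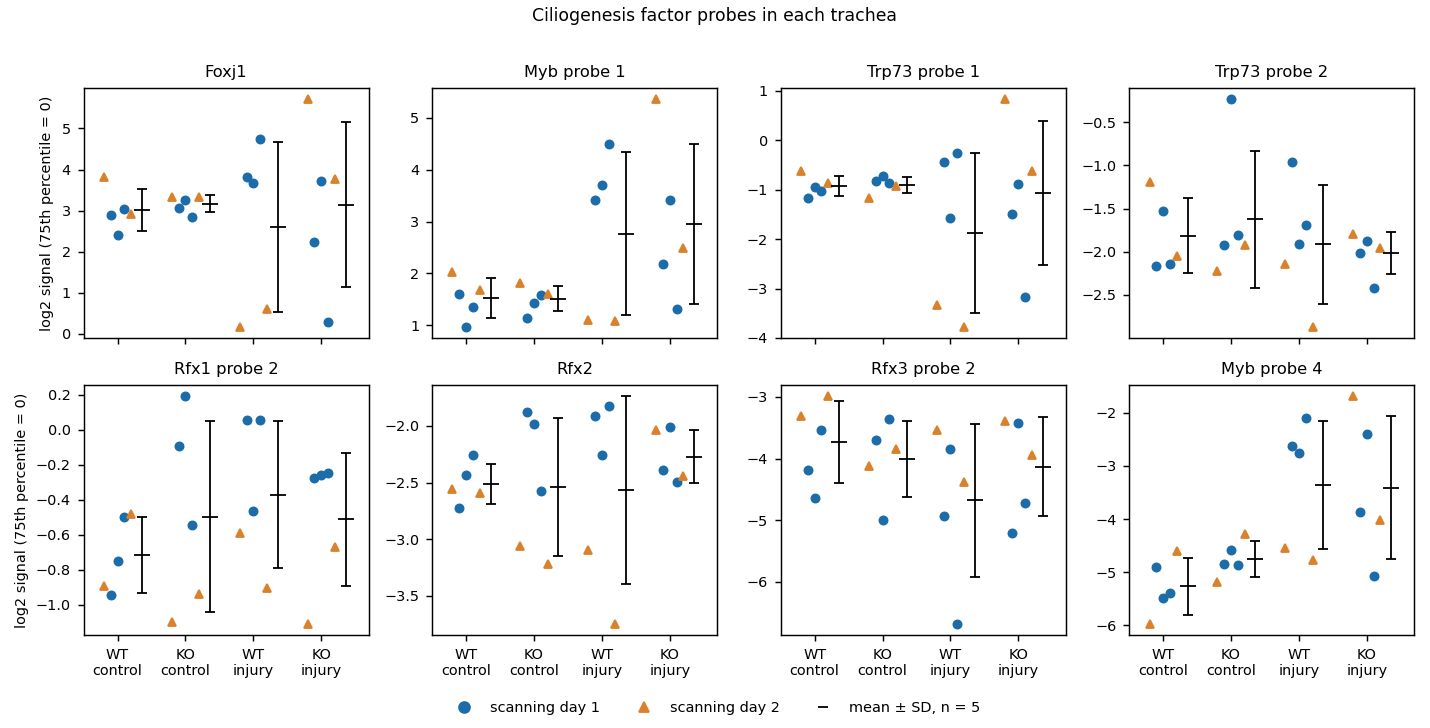
Log2 signal (array's 75th percentile at 0) of 8 tested member probes on each array, by group, with replicates 1 to 5 from left to right, the scanning day as symbol and the mean ± SD (n = 5) beside them; each panel has its own axis. Foxj1, Myb probe 1 and Trp73 probe 1 spread far wider over the injured arrays of both genotypes than over the uninjured ones, and Rfx2 does so in WT-injury.

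Foxj1 is the forkhead factor that switches on motile cilium genes, and its probe lies on chromosome 11 at 116439945 to 116440004 of the array annotation, whose build is not given in the sources used here. In WT-control replicates 1 to 5 it read 3.82, 2.88, 2.39, 3.03 and 2.93. In KO-control it read 3.33, 3.05, 3.25, 2.85 and 3.32. The uninjured arrays of both genotypes lay close together and overlapped. After injury Foxj1 read 0.17, 3.82, 3.68, 4.74 and 0.60 in WT-injury and 5.71, 2.23, 3.72, 0.29 and 3.77 in KO-injury. Injured tracheas of each genotype therefore held arrays below and arrays above every uninjured array of their genotype, with WT-injury 1 and 5 and KO-injury 4 lowest and KO-injury 1 and WT-injury 4 highest.

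The Foxj1 means stayed near each other because low and high arrays cancelled. Means were 3.01 ± 0.52 in WT-control, 3.16 ± 0.21 in KO-control, 2.60 ± 2.07 in WT-injury and 3.15 ± 2.02 in KO-injury (SD, n = 5 each). The fitted Foxj1 difference was -0.41 for wild-type injury (95% confidence interval -2.19 to 1.38, limma adjusted p = 0.806). It was -0.02 for Myd88KO injury (-1.80 to 1.77, limma adjusted p = 0.995). These intervals include changes of more than 2-fold in either direction, so an unchanged level is not shown. Without single arrays the difference ran from -0.94 to 0.20 in wild-type and from -0.66 to 0.70 in Myd88KO trachea.

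The scanning days gave opposite signs for Foxj1. On day 1 the wild-type injury difference was 1.31 (limma adjusted p = 0.195) and on day 2 it was -2.99 (limma adjusted p = 0.0295). For Myd88KO injury it was -0.97 on day 1 (limma adjusted p = 0.367) and 1.41 on day 2 (limma adjusted p = 0.551). In injured tracheas Foxj1 was 2.00 lower in Myd88KO on day 1 (limma adjusted p = 0.405) and 4.36 higher on day 2 (limma adjusted p = 0.00591). In that day 2 fit 2 of 11 member probes, Foxj1 and Trp73 probe 1, were called, beside 4.8% of all tested probes. The day 2 value rests on 2 arrays a group, and over both days it was 0.54 (95% confidence interval -1.24 to 2.33, limma adjusted p = 0.843). Any genotype difference in injured tracheas thus depended on which arrays were compared, and whether the day had a part in it was not tested.

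Myb encodes the c-Myb factor, which acts as cells commit to the multiciliated fate, and has 4 tested probes on chromosome 10. Probe 1, spotted 10 times on each array, read 2.03, 1.59, 0.97, 1.36 and 1.68 in WT-control and 1.80, 1.14, 1.44, 1.58 and 1.60 in KO-control. The WT-injury arrays read 1.10, 3.42, 3.71, 4.49 and 1.09, and the KO-injury arrays 5.36, 2.18, 3.42, 1.32 and 2.48. WT-injury 2, 3 and 4 stood above every uninjured array, and so did 4 of the 5 KO-injury arrays, while WT-injury 1 and 5 and KO-injury 4 lay within the uninjured range. Unlike Foxj1, Myb fell below the range of all uninjured arrays on none of the injured arrays. At probe 1, however, WT-injury 1 and 5 lay below the uninjured arrays of their own scanning day, which read 1.60 to 2.03.

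Probe 2 ranged from 0.14 to 1.23 on uninjured and from 0.21 to 4.53 on injured arrays, and probe 3 from -3.37 to -1.62 and from -2.89 to 0.38. All 4 Myb probes had positive differences after injury in both genotypes, and none passed the threshold. In wild-type trachea these were 1.24, 1.21, 0.90 and 1.91 for probes 1 to 4, with limma adjusted p of 0.241, 0.254, 0.298 and 0.0301. In Myd88KO trachea these were 1.44, 1.54, 1.65 and 1.34, with limma adjusted p of 0.233, 0.204, 0.0936 and 0.194. Probes of 1 gene share their transcript and are not independent measurements of the change.

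Probe 4 of Myb was the dimmest of them and came nearest to a call in wild-type trachea. It read -5.97, -4.89, -5.48, -5.39 and -4.60 in WT-control, where it was not well above background on any array. On the WT-injury arrays, all 5 of them well above background, it read -4.55, -2.63, -2.76, -2.10 and -4.76. WT-injury replicate 5 lay inside the WT-control range, replicate 1 just above it and the other 3 clearly above. The WT-injury mean was 2.76-fold the mean of the dimmest signals well above background on the WT-control arrays. That is not a lower limit of the change, since a probe not well above background can read above that floor. The 95% confidence interval of the fitted log2 difference ran from 0.74 to 3.08. In Myd88KO trachea probe 4 ranged from -5.17 to -4.28 uninjured and from -5.07 to -1.69 injured, again overlapping.

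Within scanning day 1, Myb passed the threshold for wild-type injury. Differences were 2.57 for probe 1, 2.60 for probe 2 and 2.76 for probe 4, with limma adjusted p of 0.00641, 0.00735 and 0.00785, and 3 of 11 member probes, all of Myb, were called there beside 3.15% of all tested probes. On day 2, with 2 arrays a group, the Myb probe 1 difference was -0.76 (limma adjusted p = 0.673). The Myb call thus held for WT-injury 2, 3 and 4 against their day's controls and not for WT-injury 1 and 5.

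Trp73, a p53 family member known to act upstream of Foxj1 and Myb in multiciliated cells, has 2 tested probes on chromosome 4 that disagreed. Probe 1, at 153045876 to 153045935, read -0.63, -1.16, -0.95, -1.02 and -0.85 in WT-control and -1.16, -0.83, -0.72, -0.87 and -0.92 in KO-control. In WT-injury it read -3.34, -0.45, -1.57, -0.26 and -3.77, and in KO-injury 0.83, -1.49, -0.89, -3.17 and -0.62. The same 3 injured arrays were lowest as for Foxj1, and KO-injury 1 was again highest. Probe 1 differed by -0.95 after injury in wild-type (95% confidence interval -2.29 to 0.38, limma adjusted p = 0.364) and by -0.16 in Myd88KO trachea (-1.50 to 1.17, limma adjusted p = 0.917).

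Probe 2 of Trp73, at 153048476 to 153048535, read -1.19, -2.17, -1.53, -2.14 and -2.05 in WT-control and -2.22, -1.93, -0.23, -1.81 and -1.92 in KO-control. Injured arrays read -2.14, -0.96, -1.91, -1.69 and -2.87 in WT-injury and -1.79, -2.02, -1.88, -2.42 and -1.96 in KO-injury. The KO-injury arrays lay close together, without the wide spread of probe 1, and KO-control 3 stood alone at the top. Its differences were -0.10 and -0.39 for wild-type and Myd88KO injury (limma adjusted p = 0.889 and 0.577). On day 2 the injured Myd88KO arrays exceeded the injured wild-type arrays by 3.67 at probe 1 (limma adjusted p = 0.00366) and by 0.63 at probe 2 (limma adjusted p = 0.265).

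Among the RFX factors, which bind X-box motifs, no probe was called over all arrays. Rfx2, which takes part in multiciliated cell and sperm flagellum programmes, read -2.56, -2.72, -2.44, -2.26 and -2.59 in WT-control and -3.06, -1.87, -1.98, -2.57 and -3.22 in KO-control. In WT-injury it read -3.09, -1.91, -2.26, -1.83 and -3.75, and in KO-injury -2.04, -2.39, -2.01, -2.49 and -2.44. WT-injury 1 and 5 were the lowest injured arrays, as for Foxj1, but KO-injury 1 and 4 lay close together. Rfx2 differed by -0.06 after wild-type injury (95% confidence interval -0.72 to 0.61, limma adjusted p = 0.934) and by 0.27 after Myd88KO injury (-0.40 to 0.94, limma adjusted p = 0.691).

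Rfx3, required for cilium growth in several tissues, was measured by probe 2 alone, and dimly. It ranged from -4.63 to -2.99 in WT-control, -4.99 to -3.36 in KO-control, -6.69 to -3.53 in WT-injury and -5.20 to -3.39 in KO-injury, all overlapping. The wild-type injury difference was -0.95 (95% confidence interval -2.01 to 0.11, limma adjusted p = 0.247), with WT-injury 4 lowest, an array on which Foxj1 was high. Rfx1, a broadly expressed relative, read between -0.94 and -0.48 in WT-control and between -0.91 and 0.06 in WT-injury at probe 2, and between -1.10 and 0.19 in KO-control and -1.11 and -0.25 in KO-injury. Its wild-type injury difference at probe 2 was 0.34 (-0.18 to 0.87, limma adjusted p = 0.412), and that of the dim probe 1 was 0.02 (limma adjusted p = 0.965). Foxn4 read between -7.53 and -5.26 over all arrays, with no array well above background.

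**Figure D2:**
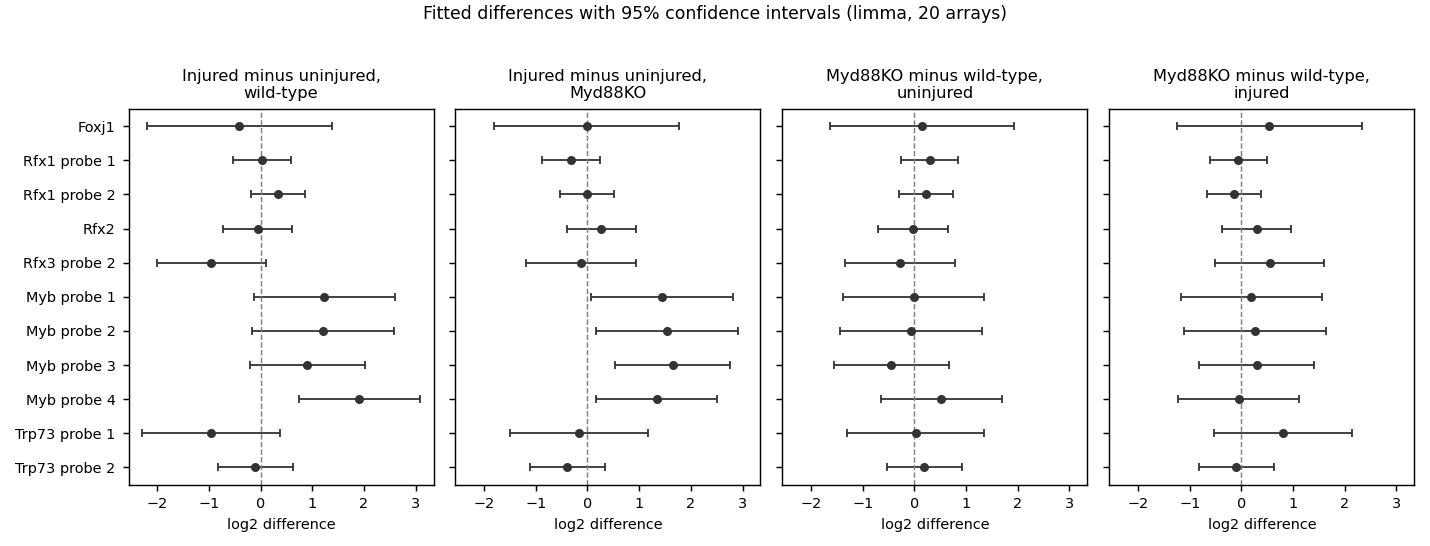
Fitted log2 differences (points) with 95% confidence intervals (bars) for the 11 tested member probes in 4 comparisons, from 1 limma fit to all 20 arrays. The intervals of Foxj1, Myb and Trp73 probe 1 are the widest, and that of Rfx3 probe 2 is nearly as wide as that of Myb probe 3. For wild-type injury the interval runs from -2.19 to 1.38 for Foxj1 and from -2.01 to 0.11 for Rfx3 probe 2.

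Between uninjured genotypes the members lay close together. Differences of Myd88KO from wild-type ran from -0.45 for Myb probe 3 to 0.52 for Myb probe 4 over the 11 probes. For Foxj1 the difference was 0.15 (95% confidence interval -1.63 to 1.94, limma adjusted p = 1.00), an interval widened by the injured arrays that share the fit. The difference between the genotypes' injury responses was 0.39 for Foxj1 (-2.13 to 2.91, limma adjusted p = 0.929).

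The spread of the members differed between probes of 1 gene, and is given here as a description. The SD of Foxj1 was 4.02 times as large in WT-injury as in WT-control, a ratio reached by 2.83% of tested probes, and 9.74 times as large in KO-injury as in KO-control, reached by 0.775%. Trp73 probe 1 gave ratios of 8.08 and 8.86, and Myb probes 1 and 2 gave 4.01 and 6.24 and 3.51 and 7.79. Myb probe 3 gave 2.19 and 2.24, ratios reached by 13.5% and 19.5% of tested probes, and Myb probe 4 gave 2.27 and 4.06, reached by 12.5% and 5.21%. The median ratio over all tested probes was 1.05 in wild-type and 1.33 in Myd88KO trachea. Rfx2 gave 4.71 in wild-type trachea, reached by 1.75% of probes, and 0.38 in Myd88KO trachea. Trp73 probe 2 gave 1.59 and 0.30, Rfx1 probe 2 gave 1.93 and 0.69, and Rfx3 probe 2 gave 1.86 and 1.30.

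Foxj1, Myb and Trp73 probe 1 also moved together from array to array within groups, most closely among the injured arrays. Each array's deviation from its group mean was correlated with that of Foxj1 for the 10 other tested member probes, with 100000 permutations within groups and Benjamini-Hochberg adjustment over the 10 relations. Myb probe 1 gave Pearson's r = 0.95 and Spearman's rho = 0.89 (adjusted permutation p = 1e-04 and 9e-04), and Trp73 probe 1 gave r = 0.96 and rho = 0.89 (adjusted permutation p = 4e-04 and 0.00277). Without the 2 arrays farthest from the median of Foxj1, r was 0.94 for Myb probe 1 and 0.93 for Trp73 probe 1. Within day 1 and day 2, r was 0.93 and 0.93 for Myb probe 1 and 0.89 and 0.84 for Trp73 probe 1. Among the 10 uninjured arrays alone r was 0.78 for Myb probe 1 and 0.40 for Trp73 probe 1, and among the 10 injured arrays 0.96 and 0.98. Myb probes 3 and 4, by contrast, gave r of -0.05 and -0.35 among the uninjured arrays and 0.89 and 0.94 among the injured ones.

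Weaker relations were those of Myb probe 3 and probe 4, with r of 0.80 and 0.85 (adjusted permutation p = 0.00714 for both), Rfx2 with r = 0.60 (0.0234) and Trp73 probe 2 with r = 0.47 (0.0173). Spearman's rho for Rfx2 was 0.54 (adjusted permutation p = 0.0546). The 3 injured arrays with the lowest Foxj1 stood away from the rest, and without them r was 0.91 for Myb probe 1, 0.63 and 0.56 for Myb probes 3 and 4, 0.86 for Trp73 probe 1, 0.14 for Rfx2 and 0.14 for Trp73 probe 2 over 17 arrays. The relations of Rfx2 and Trp73 probe 2 thus rested on those 3 arrays. Rfx1 probe 1, Rfx1 probe 2 and Rfx3 probe 2 gave r of -0.21, 0.02 and -0.07 (adjusted permutation p = 0.394, 0.93 and 0.93).

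**Figure D3:**
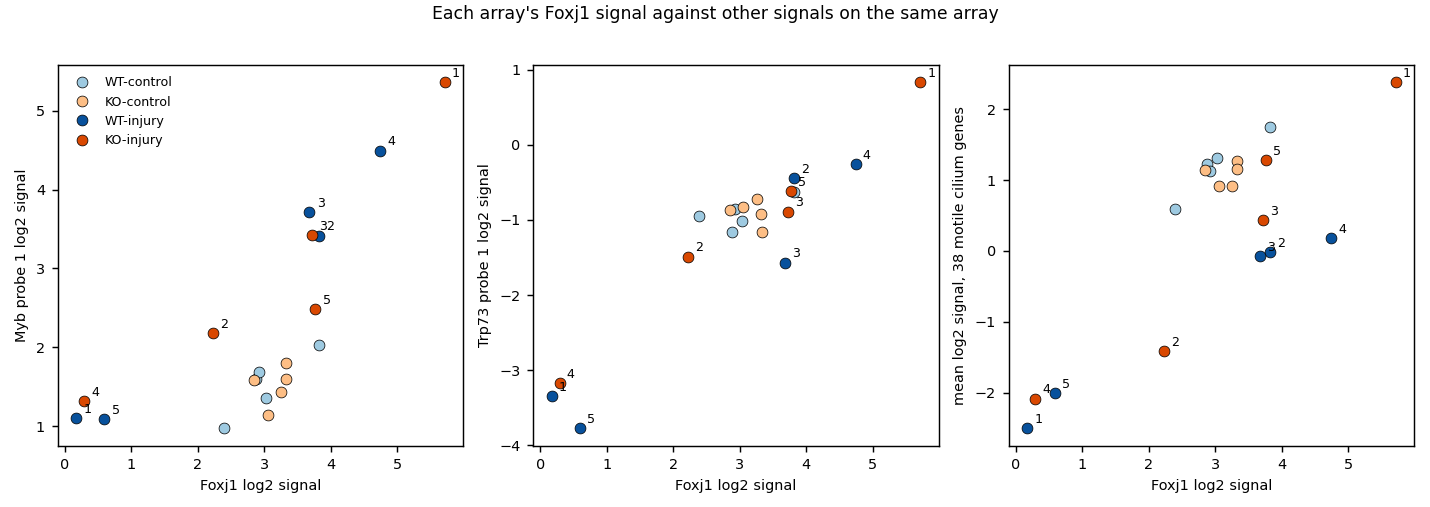
Each array's Foxj1 log2 signal (horizontal) against its Myb probe 1 signal, its Trp73 probe 1 signal and the mean log2 signal of 38 motile cilium genes (vertical), coloured by group with replicate numbers on the injured arrays. WT-injury 1 and 5 and KO-injury 4 sit at the low end and KO-injury 1 at the high end in all 3 panels, with r of the deviations from group means of 0.95 for Myb probe 1 and 0.96 for Trp73 probe 1.

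The genes whose signal followed Foxj1 most closely over the 20 arrays were Lrrc46, Zmynd10, Lrrc23, 1700003E16Rik, Ccdc103, Morn5, Nphp4, Tcp11, Oscp1 and Klhdc9, with r from 0.96 to 0.99. Zmynd10 and Ccdc103 are needed to assemble or attach dynein arms, Lrrc23 belongs to the radial spoke and Nphp4 to the transition zone at the cilium base. Over all tested probes the median r with Foxj1 was -0.03, and 0.269% reached 0.9. Lrrc46, the closest at r = 0.99, ranged from -2.96 to 1.27 in WT-injury and from -2.35 to 2.24 in KO-injury, lowest and highest on the same arrays as Foxj1. The arrays share groups and slides, so these values describe likeness in this set of arrays. Of the 13 promoter windows of 9 of these genes, 8 windows of 6 genes held the X-box letters, beside 12.5% of all windows. Overlapping windows of Tcp11 counted the same letters more than once.

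Axoneme genes fell in injured wild-type trachea. Among 49 tested probes of 38 motile cilium genes, 11 probes of 8 genes fell and 0 rose, beside 2.03% and 3.24% of all tested probes. Of the 49 probes 47 had a negative difference, with a median of -1.94, beside a median of 5.85e-05 over all tested probes. Spag16, of the central apparatus, differed by -4.93 (limma adjusted p = 0.00406), Dnah9, an outer dynein arm heavy chain, by -4.10 at 1 probe (0.000938) and -0.11 at the other (0.868), and Dnah5, another outer arm heavy chain, by -3.94 (0.00319). Without single arrays the count of probes that fell ran from 5, without WT-injury 1 or 5, to 14, and it was 6 or 7 without WT-control 1, 2, 4 or 5. In Myd88KO trachea 0 of the 49 probes were called, beside 0.376% of all tested probes, and 13 had an unadjusted p under 0.05, beside 19.5%. The median difference was -0.83, beside -0.07 over all tested probes. Without KO-injury 5, whose secretory and proliferation genes stood at an uninjured level, 4 of the 49 were called, beside 1075 of all tested probes. Of 28 probes of intraflagellar transport and BBSome genes 0 were called for wild-type injury, beside 5.26% of all tested probes. Among the 28 probes 14 had an unadjusted p under 0.05, beside 26.4% of all tested probes, and the median was -0.62.

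The mean level of the 38 motile cilium genes followed the same arrays as Foxj1. In WT-control it was 1.75, 1.23, 0.60, 1.31 and 1.13, and in KO-control 1.27, 0.91, 0.91, 1.14 and 1.16. In WT-injury it was -2.50, -0.01, -0.07, 0.18 and -2.01, and in KO-injury 2.38, -1.41, 0.44, -2.09 and 1.28. All WT-injury arrays lay below all WT-control arrays, while KO-injury 1 and 5 lay above the KO-control arrays, KO-injury 5 narrowly. Mean levels differed by -2.09 for wild-type injury (exact permutation test, two-sided p = 0.00794, the smallest that 5 against 5 arrays allow) and by -0.96 for Myd88KO injury (exact p = 0.325). Within scanning days 1 and 2 the differences were -1.01 and -3.70 in wild-type. In Myd88KO trachea they had opposite signs, -2.01 and 0.62.

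Subtracting this mean from a factor's signal on the same array shows how the factor stood relative to the axoneme genes, a comparison added after the values had been seen. For Foxj1 the result was 2.07, 1.66, 1.80, 1.71 and 1.79 in WT-control and 2.07, 2.14, 2.34, 1.71 and 2.16 in KO-control. After injury it was 2.67, 3.83, 3.75, 4.56 and 2.61 in wild-type and 3.33, 3.64, 3.29, 2.38 and 2.49 in Myd88KO trachea. Every injured array, low or high in Foxj1, stood above every uninjured array of its genotype, KO-injury 4 by the least. Injured arrays exceeded uninjured ones by 1.68 in wild-type and by 0.94 in Myd88KO trachea (exact permutation test, two-sided p = 0.00794 for both, 0.025 after Benjamini-Hochberg adjustment over 44 such tests). The differences had the same sign on both scanning days, 2.33 and 0.71 in wild-type and 1.04 and 0.79 in Myd88KO trachea. Without single arrays they ran from 1.41 to 1.90 and from 0.79 to 1.10. In wild-type trachea the subtracted mean itself differed by -2.09 without overlap, and 64.2% of all tested probes separated as Foxj1 did. The wild-type p is therefore no measure of a change in Foxj1 itself.

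On the same scale Myb probe 1 stood higher, relative to the axoneme genes, on injured arrays of both genotypes. Myb probe 1 minus the mean was 0.28, 0.37, 0.37, 0.04 and 0.55 in WT-control and 3.60, 3.43, 3.79, 4.31 and 3.10 in WT-injury. In KO-control it was 0.54, 0.22, 0.53, 0.44 and 0.44, and in KO-injury 2.98, 3.59, 2.99, 3.40 and 1.20, with KO-injury replicate 5 lowest. The groups did not overlap in either genotype, and the differences were 3.32 and 2.40 (exact permutation p = 0.00794 for both, adjusted 0.025). Trp73 probe 1 differed by 1.13 and 0.79 on this scale, with overlapping groups (exact permutation p = 0.0159 and 0.0317, adjusted 0.0466 and 0.0872). The limit given for Foxj1 in wild-type trachea holds for these Myb and Trp73 tests too.

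These relative differences need the background of the whole array. In wild-type trachea 9 of 11 member probes had all injured arrays above all uninjured ones on this scale, but so did 64.2% of all tested probes, since the subtracted mean was itself lower on those arrays. In Myd88KO trachea 5 of 11 did, the Foxj1 probe and 4 probes of a single gene, Myb, beside 0.553% of all tested probes. Subtracting the mean narrows the spread of probes that follow it from array to array, as Foxj1 did. Most tested probes did not follow Foxj1, so that share is not a matched background. With normexp background correction the Foxj1 difference in Myd88KO trachea was 0.78 and no longer passed (exact permutation p = 0.0635). A value on this scale shows unequal change of the factor and the axoneme genes and not which of them moved.

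**Figure D4:**
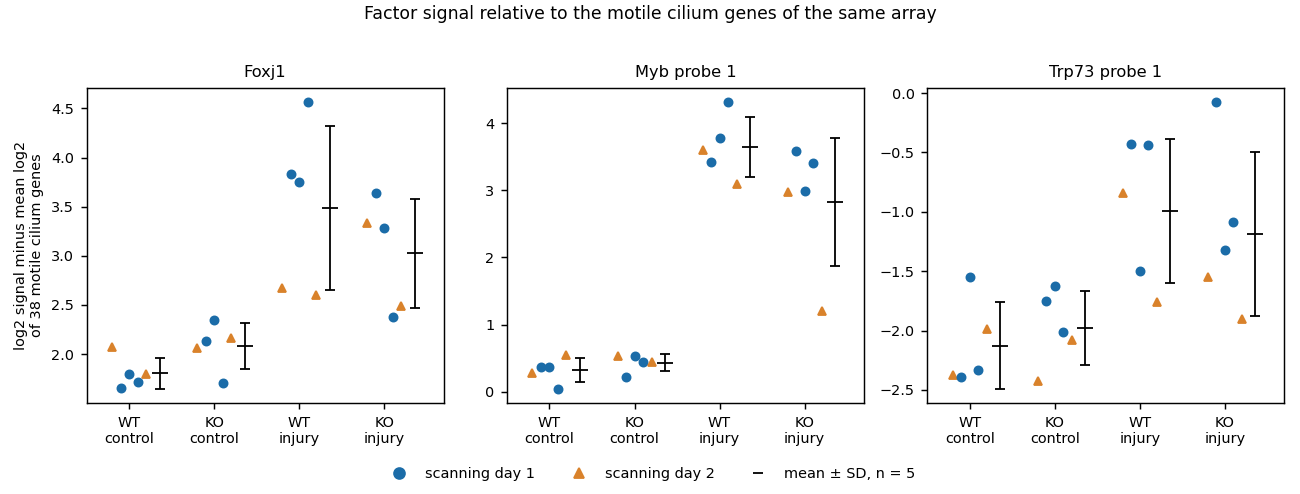
Log2 signal of Foxj1, Myb probe 1 and Trp73 probe 1 minus the mean log2 signal of 38 motile cilium genes on the same array, by group, with the scanning day as symbol and the mean ± SD (n = 5); each panel has its own axis. All injured arrays lie above all uninjured arrays of their genotype for Foxj1 and Myb probe 1, whereas the groups overlap for Trp73 probe 1.

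Among regulators of centriole amplification, Stil and Plk4 rose in both genotypes. Of 26 tested probes of 15 multiciliogenesis and deuterosome genes, 3 rose in wild-type trachea and 0 fell, beside 3.24% and 2.03% of all tested probes. The median difference over the list was -0.02. Those that rose were probes of Stil, which differed by 2.94 (limma adjusted p = 0.00143), of Plk4 by 1.63 (0.00813) and of Tfdp1 by 0.90 (0.00427). Stil and Plk4 drive centriole duplication in cycling cells as well, and Tfdp1 is the dimerization partner of E2F factors. In Myd88KO trachea 4 probes of the list rose, beside 0.134% of all tested probes. These were both of Stil with 2.97 and 2.86 and both of Plk4 with 2.32 and 3.11, with limma adjusted p from 0.00524 to 0.00914. The median of the list was 0.50. Without single arrays the wild-type count was 1 without WT-control 1 or 4 or WT-injury 2, 6 without KO-injury 1 and 5 without KO-injury 5. The Myd88KO count was 0 without any one KO-control array or KO-injury 2, 3 or 4, 1 or 2 without WT-control 1, 2, 4 or 5 or KO-injury 1, and 8 without KO-injury 5.

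Ccno, the cyclin O needed for mass centriole amplification, was not called at this threshold, although every KO-injury array and 4 WT-injury arrays stood above all uninjured ones. It read 1.20, 0.97, 0.14, 0.97 and 1.02 in WT-control and 1.12, 0.83, 0.82, 0.88 and 1.09 in KO-control. Ccno in injured tracheas read 1.12, 4.82, 4.36, 5.54 and 1.52 in WT-injury and 5.99, 3.19, 4.53, 2.04 and 2.97 in KO-injury. WT-injury replicate 1 was the single injured array inside the uninjured range. The differences were 2.61 and 2.80 (limma adjusted p = 0.026 and 0.0462).

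Deup1, which builds the deuterosome, the platform for new centrioles in multiciliated cells, read -4.37, -1.55, -1.65, -1.03 and -4.37 in WT-injury and 0.64, -2.89, -0.51, -4.24 and -2.73 in KO-injury. Uninjured arrays lay between -4.75 and -3.59, so on this probe WT-injury 1 and 5 and KO-injury 4 were at the uninjured level and the other injured arrays above it. Its differences were 1.52 and 2.34 (limma adjusted p = 0.211 and 0.0950). Ccdc78, another deuterosome component, went the other way in wild-type trachea, at -3.01 (limma adjusted p = 0.0159), and read -3.49, -0.81, -0.89, -1.19 and -3.19 in WT-injury against 0.39 to 1.84 in WT-control.

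The remaining regulators were not called. Sass6, of the centriole cartwheel, had differences of 0.58 and 1.07 at its probes in wild-type and of 0.94 and 1.22 in Myd88KO trachea (limma adjusted p from 0.0219 to 0.0837). E2f4, E2f5, Tfdp2, Cep63, Pcm1, Cetn2, Cp110 and Ezr differed by -0.52 to 0.52 over their probes after wild-type injury and by -0.20 to 1.28 after Myd88KO injury, with Pcm1 at 1.28 (limma adjusted p = 0.177) and Cp110 at 0.80 (0.271). No probe was found under the names searched for Gmnc, Mcidas, Cdc20b and Cep152, so their signals were not analysed here. Of 19 promoter windows of 15 regulators, Gmnc, Mcidas and Cep152 among them, 6 held the X-box letters and 5 the MYB letters. Of all windows 12.5% and 13.7% did. Deup1 and Ccdc78 held both. Other RFX family genes had 7 tested probes of 5 genes, with medians of -0.03 and -0.02 for injury in wild-type and Myd88KO trachea. In each genotype 0 were called, beside 5.26% and 0.376% of all tested probes.

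**Figure D5:**
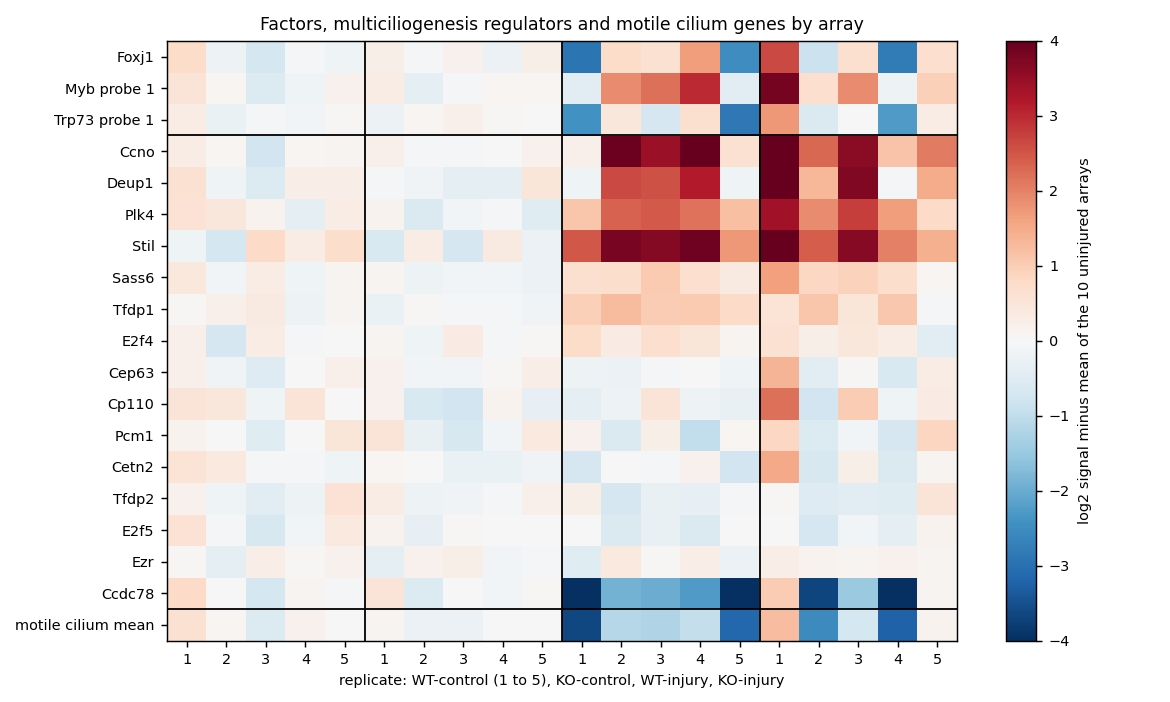
Log2 signal minus the mean of the 10 uninjured arrays, as colour from -4 to 4 (larger values take the end colour), for 3 member probes, 15 regulators (the brightest probe of each) and the motile cilium mean on all 20 arrays. Ccno and Deup1 are raised most on WT-injury 2 to 4 and KO-injury 1 and 3 and Plk4 and Stil on every injured array, while Foxj1, Trp73 probe 1 and the motile cilium mean are low on WT-injury 1 and 5 and KO-injury 4.

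Markers of other cells moved with injury too, and their part in the results above was not tested. Proliferation genes had 12 of 16 probes called higher in wild-type trachea and 0 in Myd88KO trachea, beside 3.24% and 0.134% of all tested probes. In Myd88KO trachea 14 had an unadjusted p under 0.05, beside 19.5% of all tested probes. Without any one of WT-control 1, 2, 4 or 5 or WT-injury 1 to 4 the wild-type count was 3 to 7, and the Myd88KO count was 12 without KO-injury 5 and 3 without WT-control 3. Their summed linear signal, in units of the array's 75th percentile, was 5.24 to 10.9 on uninjured arrays other than WT-control 3, 22.4 on that array, 40.2 to 68.8 on WT-injury and 5.84 to 57.3 on KO-injury arrays. Stil and Plk4 are also expressed in dividing cells, so their rise is given beside these values.

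Leukocytes bear on Myb because haematopoietic progenitors express it. Of 14 leukocyte probes 4 rose in wild-type trachea and 0 in Myd88KO trachea, beside 3.24% and 0.134% of all tested probes. In Myd88KO trachea 8 of the 14 had an unadjusted p under 0.05, beside 19.5% of all tested probes. The mean log2 signal of the 10 leukocyte genes with a value on every array spanned -1.47 to 0.38 on uninjured, 0.98 to 2.62 on WT-injury and -1.59 to 1.62 on KO-injury arrays, and the summed linear signal 273 to 533, 341 to 645 and 275 to 452. On replicates 1 to 5 this mean was 1.87, 1.27, 1.29, 0.98 and 2.62 in WT-injury and -0.49, 1.32, -0.61, 1.62 and -1.59 in KO-injury. Whether leukocytes had a part in the Myb signal was not tested. The B cell marker Cd79a was well above background on 2 of the 20 arrays. Basal cell genes had 0 of 11 probes called in either genotype, beside 5.26% and 0.376% of all tested probes. Under an unadjusted p of 0.05 stood 2 and 1 of the 11, beside 26.4% and 19.5%. Mean log2 signals of the basal genes ran from 2.98 to 4.10 over the arrays other than WT-control 3.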

How the data were processed

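RNA of 20 whole tracheas was hybridized to one-colour Agilent whole mouse genome arrays by the authors, 1 array per trachea. The deposited scanner output gives each spot's intensity, background-subtracted and spatially detrended in Feature Extraction 9.5.1.1 per the file headers, with no scaling between arrays. The deposited value table held the same values, rounded, and served as an alternative.

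Control spots and 1960 outlier values were omitted, the 1 saturated spot stayed in, and repeat spots of a probe were averaged. The log2 of these deposited intensities minus that of the array's 75th percentile was fitted in R 4.3.3 with limma 3.58.1, all 20 arrays together with group as the only term, and Benjamini-Hochberg adjustment ran over the 26063 probes well above background on 10 or more of 20 arrays. Adjusted p under 0.01 was a call, after the study's methods. Different probes of a gene were kept apart, and signals of different probes were not ranked. The script was tested on simulated data. The number of arrays, 5 a group, limits the precision. Groups came from the sample labels.

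Names were updated by accession (22951 probes), symbol (6659) or older symbol (3109) from a RefSeq table of GRCm38.p6, and 8455 probes kept the array's name. Members and gene lists were chosen with earlier results of these data known. Every member and every listed regulator is named, with the 10 genes most correlated with Foxj1 and up to 3 called genes of other lists. List means used the brightest probe of each tested gene, over genes with a value on every array. Exact and permutation tests were two-sided, with a threshold of 0.05. Alternatives were normexp background correction, quantile normalization, the value table, median centring, kept outlier spots, other filters, slide or scanning day as a block, array weights, fits of only the groups compared, the methods' one-way test and leaving out each array. Fits within each scanning day, levels relative to cilium genes and alternatives for correlations were added after the data had been seen.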

Additional observations from a re-analysis of the deposited data

Results flagged for a closer look

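Trp73 probe 2 read -0.23 on KO-control replicate 3, far above the other 4 KO-control arrays, which lay between -2.22 and -1.81. Its gap to the nearest of them exceeded Dixon's critical value for 5 samples. Trp73 probe 1 read -0.72 on the same array, close to the rest of its group. This was the single such array among 44 combinations of group and tested member probe, and chance alone marks about 1 in 20 groups.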

How the results depend on the processing

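No member probe was called in any of the 5 comparisons under the alternative settings over both scanning days (58 counts) or without any single array (100 counts, lowest 0 and highest 0). Fits within a scanning day differed: 3 Myb probes were called for injury in wild-type on day 1, beside 822 of all tested probes, and 2 probes, Foxj1 and Trp73 probe 1, for Myd88KO against wild-type in injured tracheas on day 2, beside 1251. The adjusted p of Myb probe 4 for wild-type injury ran from 0.0147 to 0.0872 over its alternatives. Of 623 recomputed member differences 20 changed sign and 0 crossed the threshold, and of 1100 without 1 array 70 and 0. Correlations with Foxj1 kept their side of the threshold in 5 alternatives, but without single arrays that of Rfx2 was lost in 5 of 20 fits and that of Trp73 probe 2 in 2 of 20. Trp73 probe 1 minus the cilium mean in Myd88KO trachea had an exact permutation p of 0.0317 unadjusted and 0.0872 adjusted. In 4 of 10 fits without 1 array the unadjusted p was no longer under 0.05. All calls for wild-type injury ranged from 1049 to 2599 over the alternatives and from 665 to 1843 without single arrays, and for Myd88KO injury from 0 to 1904 and from 6 to 1075. The cause was not tested.

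Arrays with the same replicate number shared a slide. Their deviations from the group means correlated above 0.1 in 23 of 30 pairs of arrays, with a median r of 0.24. For arrays of different numbers it was 35 of 120 pairs, with a median r of -0.08. Arrays of 1 slide were thus more alike, and the main fit took no account of this. With the replicate number (slide) as a block 0 member probes were called in each comparison. All calls went from 1372 to 1548 for wild-type injury and from 98 to 143 for Myd88KO injury. The one-way test and the fit of only the groups compared were not run for the difference between injury responses. Dim probes limit what is known of Rfx3 and Foxn4.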
